A study of Mus musculus with 6 samples.

Results

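Cyclic AMP is the second messenger through which glucagon-like peptide receptors raise insulin release in β cells. The genes analysed here are 43 of the 53801 mouse genes listed in each library, chosen by name for their place between receptor and target gene: G protein α subunits, adenylyl cyclases, phosphodiesterases, subunits and inhibitors of protein kinase A (PKA), Epac exchange factors, CREB factors with their coactivators, and β-arrestins. All 43 were found by Ensembl identifier through GENCODE M21, and receptors were left out of the list. No measured value entered the choice, but it was made with earlier results of these data known.

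RNA was sequenced from 6 clonal lines of MIN6, mouse insulinoma cells widely grown in place of primary β cells. All 6 lines expressed Cas9, received a lentiviral guide RNA with puromycin selection, and were grown from single cells. In the 3 control clones the guide targeted intron 2 of *Snd1*, and in the 3 *Snd1* KO clones it targeted exon 2. *Snd1* encodes an RNA-binding protein with nuclease-like domains. Each line is 1 clone and 1 library, so clone and genotype effects are told apart only by the 3 clones per group, and in bulk RNA fewer cells of a type and less RNA per cell cannot be told apart.

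In this pathway a stimulatory G protein, whose α subunit *Gnas* encodes, switches on adenylyl cyclases, whereas the inhibitory α subunits oppose several of them. Cyclases make cyclic AMP from ATP, and phosphodiesterases break it down. Cyclic AMP binds the regulatory subunits of PKA and frees the catalytic subunits, which phosphorylate many proteins including the transcription factor CREB, while Epac proteins pass the signal to the small GTPase Rap and have a known part in granule release. CREB and its coactivators act at the cyclic AMP response element (CRE), TGACGTCA, and arrestins bind activated receptors.

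Promoter windows of 6 genes are shown because they belong to the most abundant member, to the stimulatory α subunit, and to *Prkar2a*, *Creb1*, *Adcy3* and *Pde7b*, whose levels in the clones are described further on. RefSeq windows (build GRCm38.p6), of 250 bases before and 50 after a start site, were found for 30 of the 43 genes. Capitals mark the CRE, its shorter core TGACG or CGTCA, and the GC box GGGCGG or CCGCCC, which binds Sp factors, searched on both strands, where each CRE also holds the shorter core on either strand.
Prkar1a, plus strand, chr11:109650612-109650911: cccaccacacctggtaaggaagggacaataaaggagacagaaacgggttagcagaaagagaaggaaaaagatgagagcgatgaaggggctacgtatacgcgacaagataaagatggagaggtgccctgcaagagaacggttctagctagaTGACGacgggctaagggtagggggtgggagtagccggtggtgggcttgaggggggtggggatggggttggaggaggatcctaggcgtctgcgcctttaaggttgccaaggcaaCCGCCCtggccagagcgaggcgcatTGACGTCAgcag
Gnas, plus strand, chr2:174329756-174330055: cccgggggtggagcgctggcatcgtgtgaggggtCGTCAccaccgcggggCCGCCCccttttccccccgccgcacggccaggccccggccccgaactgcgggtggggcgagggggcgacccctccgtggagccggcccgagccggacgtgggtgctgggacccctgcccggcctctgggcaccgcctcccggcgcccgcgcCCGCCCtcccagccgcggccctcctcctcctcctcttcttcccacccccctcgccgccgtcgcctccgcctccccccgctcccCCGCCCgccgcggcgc
Prkar2a, plus strand, chr9:108691893-108692192: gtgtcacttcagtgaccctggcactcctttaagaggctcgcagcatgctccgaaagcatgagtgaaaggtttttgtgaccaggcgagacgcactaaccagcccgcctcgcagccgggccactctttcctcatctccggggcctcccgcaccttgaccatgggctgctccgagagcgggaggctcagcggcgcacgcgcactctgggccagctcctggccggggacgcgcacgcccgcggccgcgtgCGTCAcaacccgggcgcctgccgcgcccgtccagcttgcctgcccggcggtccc
Creb1, plus strand, chr1:64532554-64532853: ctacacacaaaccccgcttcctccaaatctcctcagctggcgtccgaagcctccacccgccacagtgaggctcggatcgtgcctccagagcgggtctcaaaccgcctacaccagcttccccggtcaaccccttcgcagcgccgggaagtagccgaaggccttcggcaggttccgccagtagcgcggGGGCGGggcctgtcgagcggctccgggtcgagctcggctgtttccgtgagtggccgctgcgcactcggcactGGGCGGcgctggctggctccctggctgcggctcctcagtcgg
Adcy3, plus strand, chr12:4133147-4133446: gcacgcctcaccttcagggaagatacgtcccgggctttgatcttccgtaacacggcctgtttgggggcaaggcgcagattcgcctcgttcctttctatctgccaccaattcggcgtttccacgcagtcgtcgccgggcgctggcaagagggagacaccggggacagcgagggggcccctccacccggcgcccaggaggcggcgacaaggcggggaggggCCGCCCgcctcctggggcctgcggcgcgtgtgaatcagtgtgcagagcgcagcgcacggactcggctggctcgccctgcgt
Pde7b, minus strand, chr10:20548279-20548578: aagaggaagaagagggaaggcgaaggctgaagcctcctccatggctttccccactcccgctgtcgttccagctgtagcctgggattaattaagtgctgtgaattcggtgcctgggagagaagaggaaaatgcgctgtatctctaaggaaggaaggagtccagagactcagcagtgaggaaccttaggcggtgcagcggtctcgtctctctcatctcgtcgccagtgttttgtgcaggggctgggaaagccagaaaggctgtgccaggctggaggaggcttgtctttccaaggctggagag

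*Prkar1a*, the main PKA regulatory subunit of these cells, was the 1 gene of the 30 with a full CRE, found in 2 of its 6 windows, which overlap. Over all members the CRE was in 3.23% of 62 windows, compared with 1.79% of 32851 windows of the same length in the table. The shorter core was in 18 of the 62 windows (29%), belonging to 14 genes, compared with 20.8% of all windows, and the GC box in 31 (50%) compared with 35.7%. Windows of 1 gene often overlap, and a match describes letters in the window. *Arrb1*, *Arrb2*, *Crem*, *Crtc2*, *Adcy6*, *Adcy8*, *Gnai2*, *Gnal*, *Gnaz*, *Pde3a*, *Pde3b*, *Pde7a* and *Pkia* had no entry.

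Libraries held between 25865184 and 33055394 reads on genes, recovered from the deposited TPM (reads per gene length, scaled to a sum of 1000000 per library). The authors state fewer reads per library than this, and the reason for the difference was not tested. *Snd1* had 112 to 119 TPM in control clones and, in *Snd1* KO clones 1 to 3 in turn, 14.7, 57.1 and 19.9 TPM. Control 3 stood apart from Control 1 and Control 2, with a Pearson correlation of log2(TPM + 1) of 0.943 and 0.936 over 11368 genes, compared with 0.955 and 0.949 with *Snd1* KO 3 and *Snd1* KO 2. *Snd1* KO 1 likewise correlated at 0.922 and 0.933 with *Snd1* KO 2 and *Snd1* KO 3, and at 0.928 to 0.938 with control clones. Insulin, *Pdx1* and other β cell markers summed to between 47500 and 81240 TPM in control and between 51940 and 88760 TPM in *Snd1* KO clones. The α cell list, mostly *Gcg*, summed to 174 to 314 TPM in control and 56.9 to 1100 TPM in *Snd1* KO clones. The δ cell list, of which *Hhex* was listed at 0, summed to 23.9 to 40.0 and 3.49 to 10.1 TPM through *Rbp4*, and the ductal list to 1.59 to 72.9 and 44.2 to 87.2 TPM through *Krt7*, which was high in Control 3 and all *Snd1* KO clones. Acinar, PP and ε, stromal, and immune and endothelial lists stayed at or below 5.84 TPM in every clone. The part of these other markers in the results below was not tested.

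To compare genes with each other, levels were computed per exonic base, with each base counted once, and are called per-length TPM. *Prkar1a* was the highest of the list at 1222 ± 443 per-length TPM in control clones (SD, n = 3), followed by *Gnas* at 505 ± 135 (SD, n = 3). *Prkaca*, a catalytic subunit of PKA, at 252 ± 19.3 and *Gnai3*, an inhibitory α subunit, at 238 ± 33.6 did not differ beyond their spread (SD, n = 3 each). *Prkar1b* at 146 ± 9.91, *Gnai2* at 122 ± 37.3 and *Prkacb* at 109 ± 28.6 came next, and neighbors among these 3 did not differ beyond their spread (SD, n = 3 each). At the other end, 5 genes were below the filter for testing, a mean of 0.5 TPM over the 6 clones, namely *Gnal*, *Adcy2*, *Adcy8*, *Pde8b* and *Rapgef3*.

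**Figure D1:**
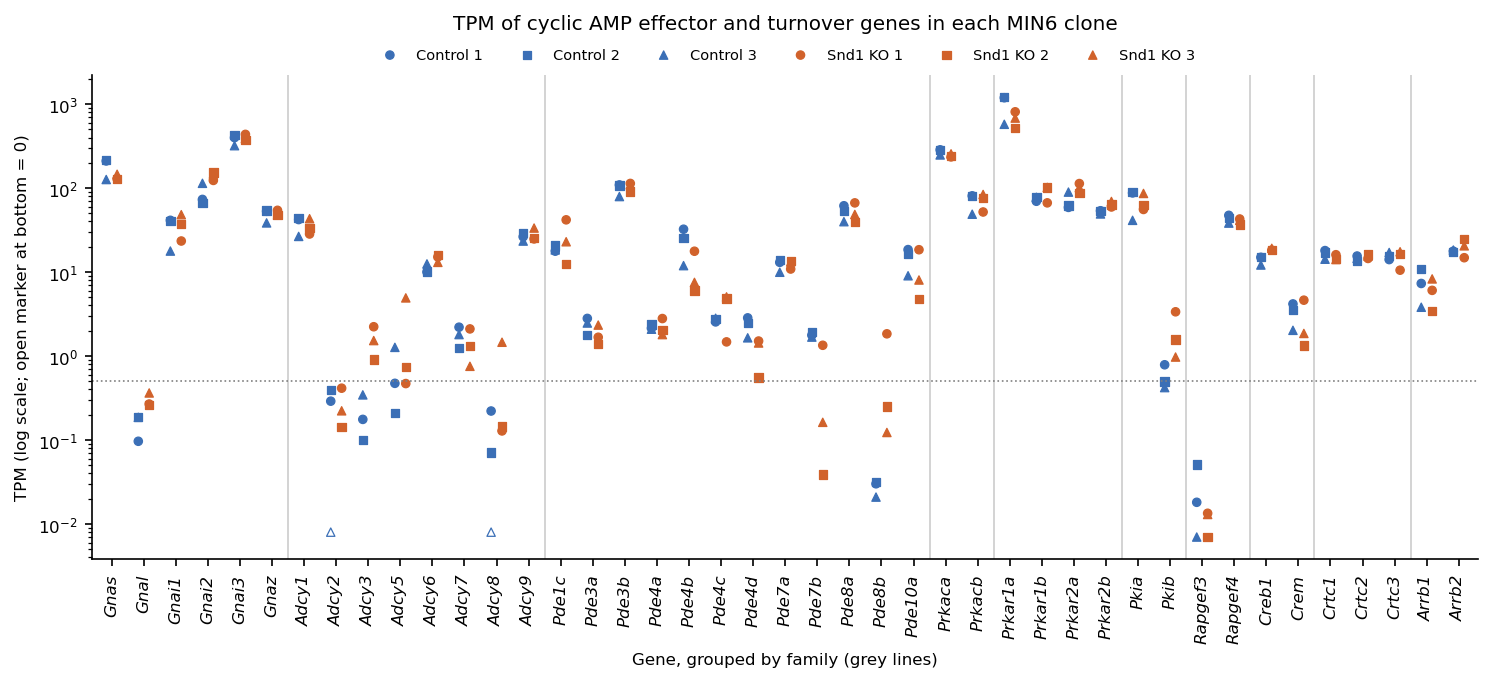
Deposited TPM on a log axis for the 43 genes in each clone, with control clones in blue, *Snd1* KO clones in orange, and circle, square and triangle for clones 1, 2 and 3. The dotted line is the filter at 0.5 TPM, open markers at the bottom are values of 0, and heights should not be compared between genes because deposited lengths are summed over transcripts.

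Of the 38 genes that passed the filter, 0 were called between the groups by limma, which required 2-fold or more together with an adjusted p-value below 0.05 and called 0.00561% of the 17823 genes tested. At an unadjusted p-value under 0.05, 8 of 38 genes passed (21.1%, compared with 7.96% of all genes tested). Higher in *Snd1* KO were 7, where the share of all genes was 5.63%, namely *Gnai2*, *Adcy3*, *Adcy6*, *Prkar2a*, *Prkar2b*, *Pkib* and *Creb1*, and lower was 1, *Pde7b*, where the share of all genes was 2.33%. *Adcy3*, with a control mean below 0.5 TPM, reached the filter only through the *Snd1* KO clones, so its place in these counts was given by the filter, and without it 7 genes passed. The split into higher and lower moved with the scaling, from 7 and 1 to 5 and 3 after quantile normalization, 5 and 4 after median ratio scaling, 7 and 3 with voom, and 9 and 9 with clone quality weights. With voom on the recovered reads, 10 genes (26.3%, compared with 8.7% of all genes) had an unadjusted p-value under 0.05 and 0 passed adjustment. The count was 3 without Control 1 and 3 without Control 2 (7.89% each, compared with 4.97% and 4.28% of all genes in those fits). Leaving out *Snd1* KO 2 gave 4 of 38 genes, where 4.84% of all genes passed, and leaving out *Snd1* KO 3 gave 4 of 38, where 6.36% did. Without *Snd1* KO 1 it was 10 (26.3%, compared with 14.3%), and without Control 3 it was 9 (23.7%, compared with 13.9%). Weighting clones by estimated quality gave 5 called genes, *Gnai2*, *Adcy3*, *Adcy5*, *Pde4b* and *Pde7b*, where 5.02% of all genes were called, and 4 without *Adcy3*. These weights were lowest in Control 3 (0.279) and *Snd1* KO 1 (0.286) and highest in *Snd1* KO 3 (3.91).

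TPM did not overlap between the groups for 8 of the 38 genes (21.1%, compared with 13.7% of all genes tested). *Gnai2*, *Adcy3*, *Adcy6*, *Prkar2b*, *Pkib* and *Creb1* were higher in every *Snd1* KO clone, a direction that 9.69% of all genes had. *Pde4d* and *Pde7b* were lower in every *Snd1* KO clone, which 4.03% of all genes were. Without *Adcy3*, which the filter admitted through its *Snd1* KO level, 7 genes did not overlap, and for each of these the two-sided exact permutation p was 0.1, the smallest that 3 and 3 clones allow. After scaling by the median ratio, and with voom scaling, the groups overlapped for *Gnai2* and *Adcy6* and no longer overlapped for *Prkaca*, and after quantile normalization they overlapped for *Adcy6*. The median log2 fold change over the 38 genes was 0.02, with 20 genes above 0, compared with a median of 0.04 and a share above 0 of 57.3% over all genes tested.

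**Figure D2:**
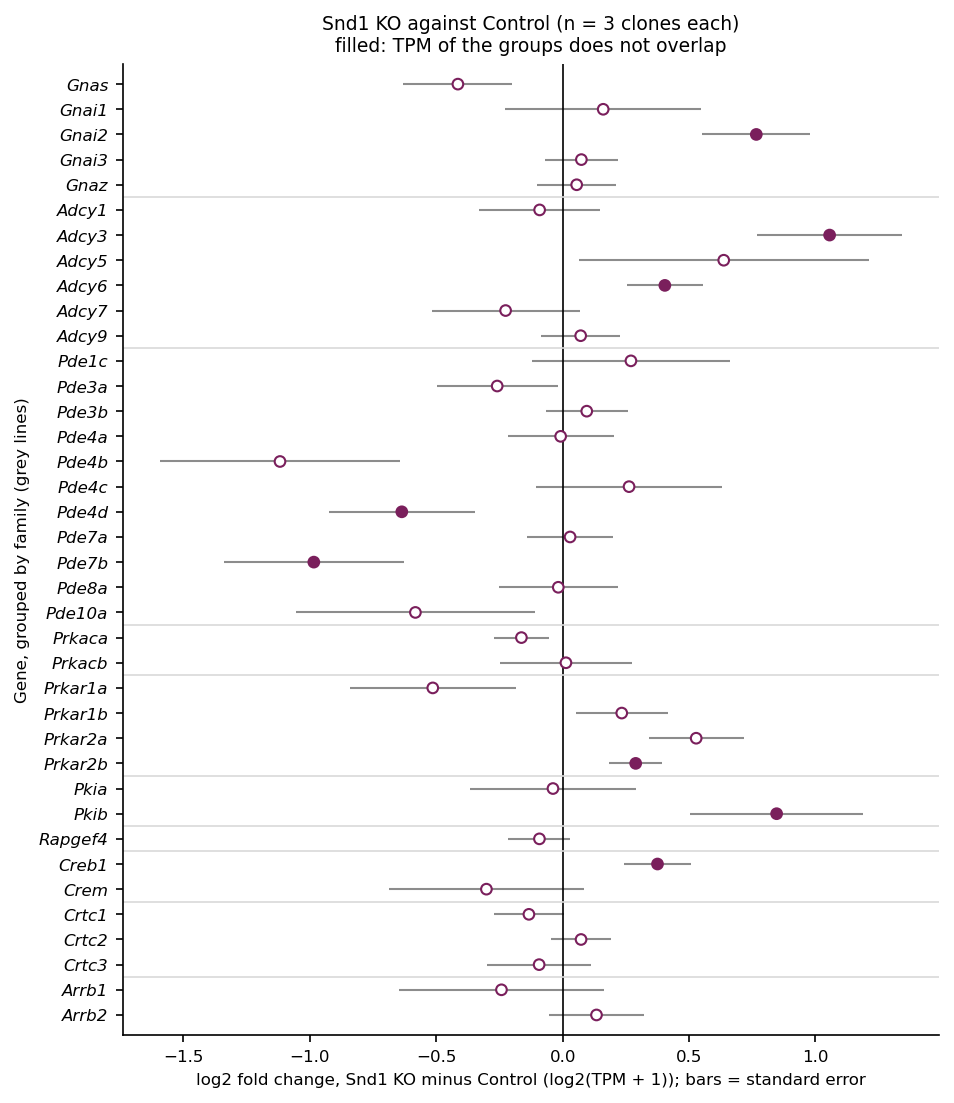
Log2 fold change of *Snd1* KO minus control on the log2(TPM + 1) scale for the 38 tested genes, with the standard error from limma as bars and filled circles where TPM did not overlap between the 3 control and 3 *Snd1* KO clones. Values run from −1.12 for *Pde4b* to 1.06 for *Adcy3*, and 28 genes lie within 0.5 of 0.

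*Gnai2* (chromosome 9 from 107614125 to 107635367, GRCm38) encodes an inhibitory α subunit that lowers adenylyl cyclase activity. It had 73.3, 66.9 and 114 TPM in the control clones, against 123.4, 154 and 147 TPM in the knockouts. Control 3 lay between the other control clones and the *Snd1* KO clones. The mean was 84.7 ± 25.5 and 141 ± 16.1 TPM (SD, n = 3 each), 1.67-fold higher in *Snd1* KO, with a log2 fold change of 0.77 (standard error 0.21, limma unadjusted p = 0.00975 and adjusted p = 0.568). With 1 clone left out it was 0.62 or above, and it was highest (0.998) without Control 3.

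*Gnas* (chromosome 2 from 174284320 to 174346744) had 210.4, 214.8 and 126.5 TPM in the control clones, against 128.6, 127.9 and 146.1 TPM in the knockouts. Control 3 was the lowest of all 6 clones, and the other control clones were the highest. The log2 fold change was −0.41 (standard error 0.22, limma adjusted p = 0.631), and −0.66 without Control 3 (adjusted p = 0.0909). *Gnas* is an imprinted locus with several start sites, and 13.1% of its exonic bases are shared with *Gm20721* on the opposite strand. *Gm20721* itself was at 49.2, 50.8 and 33.5 TPM in the control clones, against 14.5, 25.1 and 27.4 TPM in the knockouts, and whether reads were counted by strand is not given in the sources used here.

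The remaining inhibitory subunits were closer to a log2 fold change of 0. *Gnai3* had 398.9, 425 and 319.9 TPM in the control clones, against 436, 372 and 390.3 TPM in the knockouts, a log2 fold change of 0.07 (standard error 0.14). *Gnaz* at 0.06 and *Gnai1* at 0.16 on the same scale overlapped between groups too. In per-length TPM, *Gnas* made up 56.3%, 56.3% and 45.0% of the 6 α subunits in the controls, against 39.8%, 39.5% and 42.3% in the knockouts, and *Gnai2* 10.3%, 9.22% and 21.3% compared with 20%, 24.9% and 22.3%. No knockout clone reached the *Gnas* share of any control clone, whereas the share of *Gnai2* in Control 3 fell within the *Snd1* KO range. *Gnal*, the olfactory relative of *Gnas*, was below the filter, with 0.0966, 0.187 and 0.186 TPM in the control clones, against 0.268, 0.260 and 0.364 TPM in the knockouts, which did not overlap.

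*Adcy3* (chromosome 12 from 4133103 to 4213525) encodes an adenylyl cyclase known for its role at neuronal cilia. It had 26, 14 and 44 reads, or 0.176, 0.0999 and 0.345 TPM, in control clones and 297, 117 and 210 reads, or 2.23, 0.913 and 1.53 TPM, in *Snd1* KO clones. Even the lowest *Snd1* KO clone was above the highest control clone. The mean was 7.53-fold higher in *Snd1* KO, at 1.56 ± 0.660 compared with 0.207 ± 0.125 TPM (SD, n = 3 each). On the log2(TPM + 1) scale, which understates changes of low genes, this was 1.06, between 0.87 and 1.25 with 1 clone left out and 2.43 with a pseudocount of 0.1, given without its p-value because the gene passed the filter through its *Snd1* KO level. *Cenpo*, which shares 22.1% of the exonic bases of *Adcy3* on the opposite strand, had 6.09 to 8.37 TPM in control and 6.14 to 6.55 TPM in *Snd1* KO clones.

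*Adcy6* (chromosome 15 from 98589973 to 98610076), a cyclase that calcium inhibits, had 10.02, 10.2 and 12.5 TPM in the control clones, against 15.1, 15.97 and 13.1 TPM in the knockouts. Control 3 and *Snd1* KO 3 nearly met. The log2 fold change was 0.40 (standard error 0.15, limma unadjusted p = 0.0318 and adjusted p = 0.597), a 1.35-fold higher mean. Its unadjusted p-value was 0.0690 after scaling by the median ratio and 0.0772 after quantile normalization.

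*Adcy9* (chromosome 16 from 4287529 to 4420498) was the most abundant cyclase per length, with 26.3, 29.2 and 23.4 TPM in the control clones, against 24.8, 25.3 and 33.4 TPM in the knockouts. The groups overlapped (log2 fold change 0.07, standard error 0.16). It made up 40.0% to 45.5% of the cyclase family in each clone. *Adcy1*, a calcium-stimulated cyclase, had 26.6 to 44.4 TPM in control and 28.4 to 43.2 TPM in *Snd1* KO clones. *Adcy7* overlapped between groups at a log2 fold change of −0.23, and *Adcy2*, below the filter, had 0 to 9 reads per clone.

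*Adcy5*, a gene at a known type 2 diabetes risk locus, had 0.473, 0.21 and 1.27 TPM in the control clones, against 0.47, 0.746 and 4.93 TPM in the knockouts. The single high clone was *Snd1* KO 3, and the log2 fold change of 0.64 (standard error 0.57, limma adjusted p = 0.771) was 0.0082 without it, 1.11 with a pseudocount of 0.1 and 1.76 with clone quality weights. *Adcy8*, a calcium-stimulated cyclase below the filter, was also highest in *Snd1* KO 3, with 141 reads compared with at most 23 in any other clone. By share of the family, *Adcy3* held 0.239% to 0.991% in control clones and 2.24% to 5.54% in the knockouts.

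*Pde7b* (chromosome 10 from 20398004 to 20725078), an enzyme specific for cyclic AMP, had 211, 220 and 173 reads, or 1.77, 1.95 and 1.68 TPM, in control clones. In *Snd1* KO clones it had 144, 4 and 18 reads, or 1.34, 0.0387 and 0.163 TPM. *Snd1* KO 1 was near the control clones, and *Snd1* KO 2 was barely above the floor of 3 reads set here. The knockout mean was 28.6% of that in control clones (log2 fold change −0.98, standard error 0.36, limma unadjusted p = 0.0293 and adjusted p = 0.594), and the log2 fold change was −1.35 without *Snd1* KO 1, −2.34 with a pseudocount of 0.1 and −3.05 with voom.

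*Pde4d* (chromosome 13 from 108449948 to 109953461), of the cyclic AMP-specific PDE4 enzymes that rolipram inhibits, had 2.85, 2.5 and 1.65 TPM in the control clones, against 1.51, 0.556 and 1.43 TPM in the knockouts. All *Snd1* KO values were below all control values, by a small margin at Control 3. The log2 fold change was −0.64 (standard error 0.29, limma unadjusted p = 0.0645 and adjusted p = 0.607), and −0.41 without *Snd1* KO 2. It was −1.02 with a pseudocount of 0.1 and −1.10 with voom, and the unadjusted p-value was 0.0193 with voom, 0.0357 after quantile normalization and 0.0489 after median ratio scaling. *Pde4b* (chromosome 4 from 102087543 to 102607259) had 32.4, 25.6 and 11.9 TPM in the control clones, against 17.7, 6.03 and 7.54 TPM in the knockouts. Here Control 3 was below *Snd1* KO 1, so the groups overlapped. The log2 fold change of −1.12 (standard error 0.48, limma unadjusted p = 0.0526 and adjusted p = 0.607) was below that of *Pde7b* on this scale but not with a pseudocount of 0.1 or voom. With 1 clone left out it lay between −1.54, without *Snd1* KO 1, and −0.84, without Control 1. With clone quality weights it was −1.68, and the unadjusted p-value was 0.0322 with voom, 0.0436 after quantile normalization and 0.0421 after median ratio scaling.

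*Pde4a* had a log2 fold change of −0.0079, and *Pde4c* had 2.55, 2.75 and 2.82 TPM in the control clones, against 1.47, 4.85 and 5.07 TPM in the knockouts. *Pde10a* (chromosome 17 from 8525372 to 8986648), which hydrolyses cyclic AMP and cyclic GMP, had 18.5, 16.4 and 9.04 TPM in the control clones, against 18.4, 4.76 and 8.05 TPM in the knockouts. *Snd1* KO 1 was at the level of the 2 high control clones, and the log2 fold change of −0.58 (standard error 0.47, limma adjusted p = 0.758) was −1.06 without it, −0.18 without *Snd1* KO 2, −0.87 without Control 3 and −0.99 with clone quality weights.

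*Pde3b* (chromosome 7 from 114415281 to 114539251), the enzyme through which insulin signaling lowers cyclic AMP, was the most abundant phosphodiesterase per length. It had 109, 107.3 and 79.3 TPM in the control clones, against 113.6, 91 and 109.8 TPM in the knockouts, a log2 fold change of 0.10 (standard error 0.16). *Pde8a*, which has a high affinity for cyclic AMP and resists the inhibitor IBMX, had 39.8 to 61.6 and 39.3 to 66.6 TPM. *Pde1c*, which calmodulin activates, had 17.7, 20.6 and 18.4 TPM in the control clones, against 41.9, 12.4 and 22.97 TPM in the knockouts, so that *Snd1* KO 1 and *Snd1* KO 2 lay on opposite sides of the control clones. *Pde3a* at −0.26 and *Pde7a* at 0.03 on the log2 scale overlapped between groups.

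*Pde8b*, a relative of *Pde8a* with a mean below the filter, was covered by 5, 5 and 3 control reads, against 275, 36 and 19 in the knockouts. Most of this came from *Snd1* KO 1. The antisense gene *Gm48420*, which shares 7.6% of its exonic bases, had 4.04 to 8.73 TPM in control and 5.81 to 9.07 TPM in *Snd1* KO clones. Summed over the 12 phosphodiesterases, per-length TPM was 274, 258 and 181 in control and 295, 166 and 214 in *Snd1* KO clones, so the sums overlapped. Of this sum *Pde4b* held 10.1% to 18% in control and 5.40% to 9.24% in *Snd1* KO clones.

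**Figure D3:**
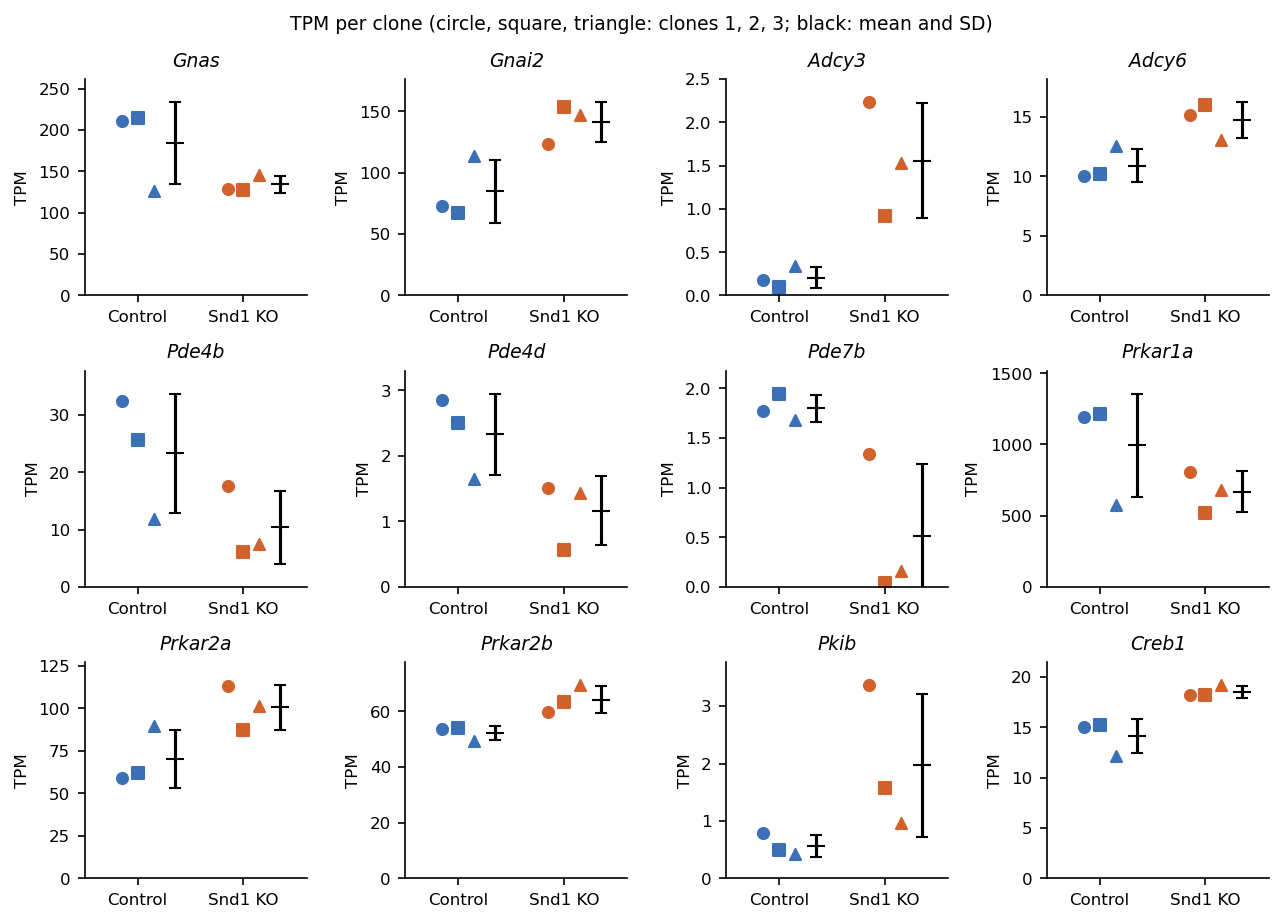
Deposited TPM per clone on linear axes from 0 for 12 genes, with control clones in blue, *Snd1* KO clones in orange and the mean with SD in black (n = 3 each). The triangle of Control 3 lies on the *Snd1* KO side of the other control clones in all panels but *Prkar2b*, *Pkib* and *Creb1*. Among *Snd1* KO clones, the circle of *Snd1* KO 1 lies nearest to the control mean in *Gnai2*, *Pde4b*, *Pde4d*, *Pde7b*, *Prkar1a* and *Prkar2b*. For *Pde7b* the SD of *Snd1* KO extends below 0 and is drawn to the axis.

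Regulatory subunits of PKA hold the kinase inactive until cyclic AMP binds. *Prkar1a* (chromosome 11 from 109649405 to 109669656), the type I subunit whose promoter holds the CRE shown above, had 1191, 1214 and 574.9 TPM in the control clones, against 809.6, 516.9 and 682 TPM in the knockouts. Control 3 lay within the *Snd1* KO range, and the other control clones were well above it. The log2 fold change was −0.51 (standard error 0.33, limma adjusted p = 0.695), −0.87 without Control 3 (adjusted p = 0.196) and −0.33 without Control 2. Weighting the clones by quality gave −0.80, and dropping *Snd1* KO 2 gave −0.34.

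*Prkar2a* (chromosome 9 from 108689314 to 108750436), a type II subunit that anchoring proteins place at membranes, had 58.9, 62.2 and 89.6 TPM in the control clones, against 113.2, 87.05 and 101.3 TPM in the knockouts. Control 3 again lay within the *Snd1* KO range. The log2 fold change was 0.53 (standard error 0.19, limma unadjusted p = 0.0277 and adjusted p = 0.591), 0.71 without Control 3, and its unadjusted p-value was 0.0706 after scaling by the median ratio.

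*Prkar2b* (chromosome 12 from 31958476 to 32061296), the second type II subunit, had 53.7, 53.8 and 49.2 TPM in the control clones, against 59.6, 63.5 and 69.3 TPM in the knockouts. These groups were separate and each was narrow. The mean was 1.23-fold higher in *Snd1* KO, with a log2 fold change of 0.29 (standard error 0.10, limma unadjusted p = 0.0294 and adjusted p = 0.594). *Prkar1b* had 69.7, 78.3 and 77.7 TPM in the control clones, against 66.7, 101.9 and 101.9 TPM in the knockouts, and *Snd1* KO 1 was the lowest of all 6.

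In per-length TPM the ratio of type II to type I regulatory subunits was 0.0790, 0.0787 and 0.171 for the controls, against 0.162, 0.198 and 0.179 for the knockouts. Control 1 and Control 2 were at less than 0.08, and Control 3 was within the *Snd1* KO range. *Prkar1a* made up 84.9%, 84.1% and 70.4% of the regulatory subunits in control and 76.2%, 63.7% and 68.7% in *Snd1* KO clones. The ratio of summed regulatory to summed catalytic subunits was 4.44, 4.55 and 3.30 in control and 4.39, 2.95 and 3.33 in *Snd1* KO clones, with *Snd1* KO 1 near the 2 high control clones.

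**Figure D4:**
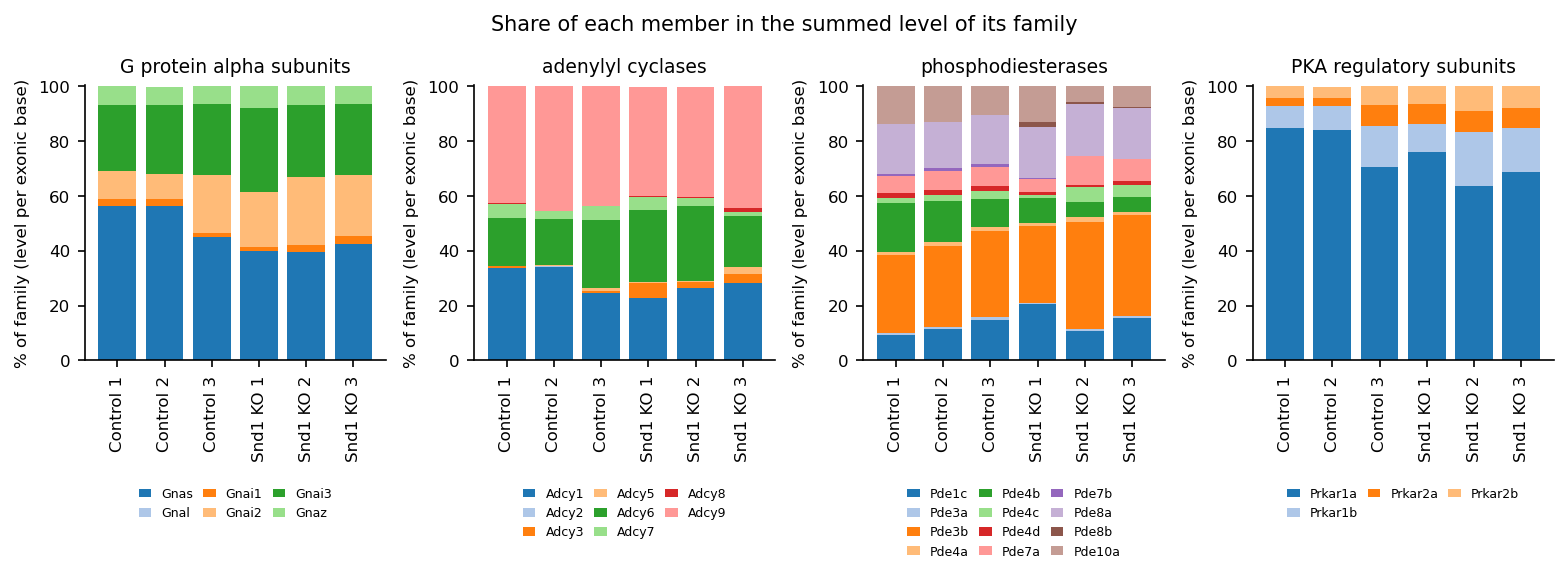
Share of each gene in the summed per-length TPM of its family, in percent, as stacked bars for the 6 clones, for G protein α subunits, adenylyl cyclases, phosphodiesterases and PKA regulatory subunits. The *Gnas* share is 45.0% or more in control clones and 42.3% or less in *Snd1* KO clones, and *Prkar1a* is the largest share of the regulatory subunits in each clone.

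*Prkaca* (chromosome 8 from 83972993 to 83996443) had 285.4, 286.5 and 248.2 TPM in the control clones, against 235.3, 239.9 and 255.8 TPM in the knockouts, a log2 fold change of −0.16 (standard error 0.11, limma adjusted p = 0.705). The groups overlapped at Control 3 and *Snd1* KO 3. *Prkacb* had 48.9 to 81.2 TPM in control and 51.9 to 84.0 TPM in *Snd1* KO clones (log2 fold change 0.01).

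PKA inhibitors are small proteins that bind and block the free catalytic subunit. *Pkib* (chromosome 10 from 57631981 to 57741112) had 93, 56 and 43 reads, or 0.787, 0.499 and 0.421 TPM, in control clones and 358, 161 and 107 reads, or 3.36, 1.57 and 0.973 TPM, in *Snd1* KO clones. *Snd1* KO 1 was the highest. The mean was 3.46-fold higher in *Snd1* KO, a log2 fold change of 0.85 (standard error 0.34, limma unadjusted p = 0.0445 and adjusted p = 0.607) that was 0.53 without *Snd1* KO 1, 0.42 with clone quality weights, 1.495 with a pseudocount of 0.1 and 1.62 with voom. Its unadjusted p-value was 0.0946 after quantile normalization and 0.110 with clone quality weights. *Pkia* (chromosome 3 from 7366669 to 7445366), which made up 92.1% or more of the inhibitor level per length in each clone, had 87.6, 89.7 and 41.3 TPM in the control clones, against 55.6, 62.5 and 86.3 TPM in the knockouts, with both groups spanning most of the same range.

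Epac was represented by *Rapgef4* (chromosome 2 from 71981240 to 72257474), the form known from islets and brain. It had 47.4, 43.9 and 38.3 TPM in the control clones, against 42.8, 36.9 and 41.4 TPM in the knockouts, a log2 fold change of −0.09 (standard error 0.12, limma adjusted p = 0.858). *Rapgef3*, the other Epac gene, had 1 to 8 reads per clone.

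*Creb1* (chromosome 1 from 64532645 to 64604548) encodes CREB itself. It had 14.98, 15.2 and 12.1 TPM in the control clones, against 18.2, 18.2 and 19.2 TPM in the knockouts. Here the *Snd1* KO clones were close together and all above the control clones, of which Control 3 was the lowest and farthest from them. The mean was 14.1 ± 1.71 and 18.5 ± 0.571 TPM (SD, n = 3 each), 1.31-fold higher in *Snd1* KO, with a log2 fold change of 0.38 (standard error 0.13, limma unadjusted p = 0.0265 and adjusted p = 0.589). With 1 clone left out it lay between 0.28 and 0.43, the lowest being without Control 3.

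*Crem*, whose short form represses CREB targets, had 4.17, 3.5 and 2.02 TPM in the control clones, against 4.63, 1.34 and 1.86 TPM in the knockouts, and the groups overlapped. None of the 3 CREB coactivators passed at an unadjusted p-value under 0.05. *Crtc2* (chromosome 3 from 90254163 to 90264125), the most abundant per length, had 15.5, 13.6 and 14.6 TPM in the control clones, against 14.5, 16.1 and 15.5 TPM in the knockouts, a log2 fold change of 0.07 (standard error 0.12). *Crtc1* at −0.13 and *Crtc3* at −0.09 on the log2 scale overlapped between groups.

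Of the arrestins, *Arrb2* (chromosome 11 from 70432635 to 70440828) was the more abundant per length, with 17.7, 17.3 and 18.3 TPM in the control clones, against 14.8, 24.6 and 20.5 TPM in the knockouts (log2 fold change 0.13, standard error 0.19). *Arrb1*, known to take part in GLP-1 receptor signaling, had 7.31, 10.9 and 3.81 TPM in the control clones, against 6.05, 3.41 and 8.29 TPM in the knockouts. Clones of both groups were spread over the same range.

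Control 3 was the control clone nearest to the *Snd1* KO mean in 17 of the 38 genes (44.7%, compared with 39.1% of all genes tested). *Gnas*, *Gnai2*, *Adcy3*, *Adcy6*, *Pde4b*, *Pde4d*, *Pde7b*, *Prkar1a* and *Prkar2a* were among them, and *Creb1*, *Prkar2b* and *Pkib* were not. Without Control 3, *Gnas*, *Pde4b*, *Prkar1a*, *Prkar2a*, *Prkaca*, *Pkia*, *Rapgef4* and *Crtc1* joined the genes without overlap. In that fit 16 of 38 genes had none (42.1%, compared with 35.1% of all genes tested without that clone).

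Other genes of the pathway were counted from lists that hold none of the 43 genes. Of 152 such genes, 104 passed the filter and 0 were called. At an unadjusted p-value under 0.05, 17 passed (16.3%, compared with 7.96% of all genes tested), 10 higher and 7 lower in *Snd1* KO clones, and the median log2 fold change was 0.02. Without *Akap3*, which the filter admitted only through its control level, 16 passed, 6 of them lower. With 1 clone left out this count was lowest, at 7, without Control 1 (6.8%, compared with 4.97% of all genes) and without *Snd1* KO 2 (6.86%, compared with 4.84%). It was 8 without *Snd1* KO 3 (7.92%, compared with 6.36%), 10 without Control 2 (9.62%, compared with 4.28%) and 29 without *Snd1* KO 1 (28.4%, compared with 14.3%). Without Control 3 it was 22 (21.6%, compared with 13.9%).

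Upstream, 3 of 7 tested Gs-coupled receptors (42.9%) and 4 of 9 Gi-coupled receptors (44.4%) passed at that level, compared with 7.96% of all genes tested. *Glp1r*, the receptor for GLP-1, lay at 384 to 432 TPM in *Snd1* KO compared with 494 to 1068 TPM in control clones. *Adora2b*, a Gs-coupled adenosine receptor, had 5.11, 6.38 and 8.76 TPM in the control clones, against 15.9, 26.6 and 25.4 TPM in the knockouts (log2 fold change 1.602, standard error 0.26, limma adjusted p = 0.324). *Vipr1*, a receptor for vasoactive intestinal peptide, had 50.6, 40.6 and 128.2 TPM in the control clones, against 109.5, 153.1 and 137.8 TPM in the knockouts. *Galr1*, a Gi-coupled galanin receptor, had 54.2, 58.8 and 67.8 TPM in the control clones, against 90.99, 107.6 and 97.4 TPM in the knockouts (log2 fold change 0.70, standard error 0.12, limma adjusted p = 0.371). *Adora1* at 1.05 was above 0 and *Sstr5*, a somatostatin receptor, at −1.09 was below 0 on the log2 scale, both with overlapping groups. No other α subunit of 8 tested, no β or γ subunit of 11 and no receptor kinase of 5 had an unadjusted p-value under 0.05. On the log2 scale, 4 of the 11 β and γ subunits were above 0 and 7 below. The γ subunit *Gng2* had 28.6, 39.4 and 0.305 TPM in the control clones, against 0.819, 2.58 and 3.51 TPM in the knockouts. Its log2 fold change was −1.91 (standard error 1.27), and −3.49 without Control 3.

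Among anchoring proteins for PKA, *Akap8* was higher at that level among 11 tested. *Akap3* had 3.03, 2.44 and 5.24 TPM in the control clones, against 1.24, 0.0444 and 0 TPM in the knockouts, given without its p-value because its knockout mean was below 0.5 TPM. Among other enzymes and cyclic AMP-related factors, *Pde1b* and *Atf1* were higher at that level. *Atf1*, a close relative of CREB, had 33.01, 33.9 and 30.8 TPM in the control clones, against 38.8, 39.3 and 41.4 TPM in the knockouts, which do not overlap.

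Downstream, 3 of 18 CREB target genes tested (16.7%, compared with 7.96% of all genes tested) had an unadjusted p-value under 0.05. Control 3 was the control clone nearest to the *Snd1* KO mean in 12 of the 18 (66.7%, compared with 39.1% of all genes tested). That share was also 66.7% for Gi-coupled receptors, 23.1% for Rap effectors and 45.2% over all 104 tested genes of the pathway lists. *Gem*, a GTPase that limits calcium channels, had 47.2, 38.1 and 18.8 TPM in the control clones, against 8.33, 14.1 and 18.6 TPM in the knockouts (log2 fold change −1.25, standard error 0.40, limma adjusted p = 0.571). *Vgf*, a granule protein, had 235.5, 227.8 and 228.7 TPM in the control clones, against 230, 51.8 and 82.9 TPM in the knockouts, with *Snd1* KO 1 at the control level. *Cited2*, a coregulator that binds CBP and p300, was higher, with 43.4, 43.2 and 33.5 TPM in the control clones, against 48.4, 70.4 and 67.7 TPM in the knockouts. The median over the 18 genes was −0.14. In the lists of Rap effectors and of CREB coregulators, *Rapgef5* at −1.15 and *Creb3* at −0.30 were the genes that passed at this level, each below 0 on the log2 scale. This was 1 of 13 tested (7.69%) and 1 of 12 tested (8.33%), near the 7.96% of all genes tested.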

How the data were processed

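The authors made 1 library per clone, sequenced paired ends and processed them on the Genialis platform. Per the labels, FastQC, Trimmomatic, HISAT2, HTSeq and DESeq2 and the build mm10 were listed in the submitters' processing notes, with no versions. The deposited values are TPM per gene, and 99 spike-in rows, summing to at most 1.02 TPM, were left out. Multiplied by the exon length summed over all transcripts, 93.3% to 93.8% of values above 0 came out as whole reads (within 0.01). These included 40 of the 43 genes here, for which reads are given. *Gnal*, *Adcy5* and *Pde10a* did not come out as whole reads, so that no reads are given for them. Their per-length TPM, and so the sums and shares of their families, still used these lengths, and voom used their rounded values. The floor covers counting error only. Every pair of libraries differed by more than sampling noise.

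Log2(TPM + 1) was compared for the 17823 genes averaging 0.5 TPM or more with limma 3.58.1 in R 4.3.3 (trend, Benjamini-Hochberg over all genes), *Snd1* KO minus control. A call needed both 2-fold or more and an adjusted p-value below 0.05. p-values measure the spread between clones. Single genes were compared by exact permutation tests with Python 3.11.15, and plots used matplotlib 3.10.9. The fit was tested on simulated data drawn independently for each gene, which hold no differences shared by whole clones. Fold changes were added only to more abundant genes, so their recovery was not tested for low genes such as *Adcy3*, *Pde7b* and *Pkib*. Genes, lists and tests were chosen with earlier results of these data known. Values in every clone are given for genes without overlap, with an unadjusted p-value under 0.05, whose log2 fold change was 0.5 or more either way, or the most abundant of a family per length. From other pathway lists up to 3 genes per list with an unadjusted p-value under 0.05 are named, by smallest p. Some items are not reported here. Other values were chosen after they were seen.

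Alternatives were a pseudocount of 0.1, dropping the filter or raising it to 5 TPM, quantile normalization, median ratio scaling, leaving insulin and mitochondrial genes out of the TPM sum, an untrended prior, clone quality weights, a replicate block, voom on recovered reads, and leaving out each clone. *Adrbk1* and *Adrbk2*, older names of *Grk2* and *Grk3*, were dropped from the lists.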

Additional observations from a re-analysis of the deposited data

How the results depend on the processing

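Under each of the 16 alternatives 0 of the 43 genes were called, except with clone quality weights, which called 5, or 4 without *Adcy3*. Those weights also gave 18 genes with an unadjusted p-value under 0.05 (47.4%) and 51 other pathway genes (49%), where 32.6% of all genes tested passed. With the filter at 5 TPM, 5 of 28 genes passed at an unadjusted p-value under 0.05 (17.9%, compared with 8.15% of all genes) and 4 did not overlap (14.3%, compared with 14% of all genes). With 1 clone left out, the genes with an unadjusted p-value under 0.05 numbered 3 to 10, those without overlap 8 to 16, and other pathway genes 7 to 29. The share of all genes without overlap moved too, from 18.1% without Control 2 to 35.1% without Control 3, and without Control 1 it was 19.9%, compared with 21.1% of the members. The median over members moved by less than the spread between clones. Of 331 alternative values of the 21 named genes, 9 changed sign, all from fold changes near 0: *Pkia* was 0.013 without insulin and mitochondrial genes, 0.13 without Control 1, 0.15 without Control 2, 0.093 without *Snd1* KO 1 and 0.011 without *Snd1* KO 2, *Adcy9* was −0.0073 without Control 3 and −0.062 without *Snd1* KO 3, *Pde3b* was −0.052 without Control 3 and *Arrb2* −0.024 without *Snd1* KO 2. With 1 clone left out, *Pkia* ranged from −0.40 to 0.15, *Adcy9* from −0.062 to 0.15, *Pde3b* from −0.052 to 0.19 and *Arrb2* from −0.024 to 0.32. The cause was not tested. Clone numbers name clones and do not pair them (correlations of deviations 0.12, −0.20 and −0.11). With a replicate block by number, 6 genes passed at an unadjusted p-value under 0.05 (15.8%, compared with 6.7% of all genes) and 0 were called. Depth limits *Rapgef3*, *Adcy2*, *Adcy8*, *Pde8b* and *Pde7b*, each with fewer than 10 reads in at least 1 clone.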
